A study of Drosophila melanogaster with 17 samples.

Results

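The glial and blood-brain barrier genes described here were 9 genes of the deposited count table, picked by symbol: repo, gcm, moody, Gli, Nrx-IV, nrv2, loco, wrapper and drpr. All 9 symbols were found among the 13872 genes of the table, and all 9 passed the filter on low counts in each comparison. They were followed in 17 mRNA-seq libraries of the Drosophila melanogaster central nervous system (CNS), each made from a pool of about 200 CNS dissected from late larvae of the third instar. The study asked which transcripts change when Smn, the fly homolog of the human gene lost in spinal muscular atrophy, is lowered in neurons. All larvae carried the GAL4-elav.L driver, which is active in postmitotic neurons, in a w background. X7/C24 larvae (4 libraries) carried the UAS-Smn RNAi-C24 hairpin transgene together with Df(3L)Smn X7, so that 1 Smn copy was also missing in every cell, glia included. C24 larvae (7 libraries) carried the driver and the hairpin transgene. WT larvae (6 libraries) carried the driver and a UAS-PWIZ insertion, and are therefore a driver control, not unmanipulated flies. The driver limits the hairpin to neurons, whereas the deletion of X7/C24 also covers glia. The genotype labels number the RNAi line upward with each replicate, whereas the titles and the study's methods name a single line, and the groups follow the titles.

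Glia of the fly CNS wrap neurons, recycle transmitters and clear debris, and an outer perineurial and an inner subperineurial layer of glia form the blood-brain barrier. The subperineurial cells are sealed to each other by septate junctions, ladder-like contacts that take the place of vertebrate tight junctions. Repo and Gcm are transcription factors of glial identity. Moody is a G protein-coupled receptor of the barrier and Loco is a regulator of G protein signalling that acts with it. Nrx-IV, Nrv2 and Gliotactin (Gli) belong to septate junctions, Wrapper is a surface protein of midline and wrapping glia, and Draper (drpr) is the receptor with which glia engulf axon debris and dying cells.

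The positions of the genes were taken from the BDGP6 annotation, whereas the authors aligned reads to BDGP5, so that they describe the genes and not the counted intervals. The glial fate genes repo and gcm lie at 3R:18236192-18239602 on the plus strand (2996 exon bases) and 2L:9579498-9581745 on the minus strand (2173 exon bases). moody lies at X:2044292-2050120 (minus strand, 3939 exon bases) and loco at 3R:22619968-22639387 (minus strand, 7671 exon bases). The septate junction genes are Nrx-IV at 3L:12146519-12156990 (plus strand, 5137 exon bases), nrv2 at 2L:6789770-6798862 (minus strand, 3568 exon bases) and Gli at 2L:15756002-15762758 (minus strand, 4468 exon bases). wrapper lies at 2R:22379637-22382675 (plus strand, 1977 exon bases) and drpr at 3L:1715595-1731107 (minus strand, 4757 exon bases). The libraries did not keep strand, so reads in shared exon stretches cannot be assigned to a gene. Such stretches made up 13.5% of the exon bases of loco (an antisense RNA), 6.11% of repo (CG7156), 5.89% of gcm (CG31709) and 2.42% of drpr (Oseg4), and none of those of the other 5 genes.

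Library depth ranged between 7883183 and 28339670 counts (median 18432613). Libraries are named by group and replicate (WT_4), and expression is given in CPM, counts scaled for library size, after TMM scaling over all 17 libraries. By the study's library table, WT_1 to 3 and C24_1 to 4 were a pilot round, WT_4 to 6 and C24_5 to 7 a second round, and the X7/C24 libraries the third. The X7/C24 genotype and the third round therefore cannot be told apart. Smn, the targeted gene, had 30.1, 29.0 and 29.5 CPM in X7/C24_1 to 3, 55.8, 66.2 and 55.4 CPM in C24_5 to 7, and 67.2, 67.8 and 64.1 CPM in WT_4 to 6. In C24 against WT, Smn gave a log2 fold change of -0.16 and was not called, in the main test or in any of 17 alternatives. The study found no significant decrease of Smn in C24 either, by mRNA-seq or by RT-qPCR. X7/C24_4 had 44.7 CPM of Smn and stood between its group and the second round. The study left that library out for its duplicate reads. It left out WT_1, WT_2 and C24_1 for high Pen, its marker of imaginal discs, and for low or absent CNS markers such as repo. It also set aside WT_3 and C24_3 for low GAL4, and compared C24 with WT both with and without C24_6 and WT_5, in which it saw transcripts from outside the CNS. The reagent table of the study lists 1 X7/C24 library under the earlier library kit, together with the pilot libraries, and does not show whether this was X7/C24_4. The tests below compare 3 with 3 libraries (X7/C24_1 to 3, C24_5 to 7, WT_4 to 6), and the other libraries are given beside them. No source says more of the replicates than that each was a separate pool, so the p-values measure the spread between pools.

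Across the 9 libraries of the tests the 9 genes together held between 1569 and 1797 CPM. Their order of level, per kilobase of exon (RPKM, from the scaled CPM), was the same in C24_5 to 7 and WT_4 to 6 but for moody and loco, which changed places. Nrx-IV was highest, with 132 ± 13.6 RPKM in C24 and 132 ± 4.61 RPKM in WT (SD, n = 3 each). wrapper followed with 79.3 ± 5.69 RPKM in C24 and 79.2 ± 2.04 RPKM in WT. nrv2 had 64.9 ± 4.94 and repo 50.6 ± 3.72 RPKM in C24, against 65.9 ± 4.55 and 50.5 ± 1.81 RPKM in WT. drpr had 42.1 ± 4.95 and gcm 30.8 ± 1.62 RPKM in C24, against 44.5 ± 2.30 and 32.9 ± 0.791 RPKM in WT. The lower end was held by loco (13.9 ± 1.95 RPKM in C24, 14.8 ± 0.911 in WT), moody (13.7 ± 1.17 in C24, 16.7 ± 0.870 in WT) and Gli (7.66 ± 1.03 in C24, 8.54 ± 0.505 in WT). In C24 the ranges of moody and loco overlapped, whereas those of the other neighbours in the order did not, nor did any in WT. In X7/C24_1 to 3 Gli reached 14.3 ± 1.21 RPKM, within the spread of loco with 14.4 ± 0.934 and moody with 15.5 ± 0.821 RPKM. gcm had 22.0 ± 1.94 RPKM there, and drpr (51.0 ± 2.91 RPKM) lay within the spread of repo (49.1 ± 3.06 RPKM).

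**Figure D1:**
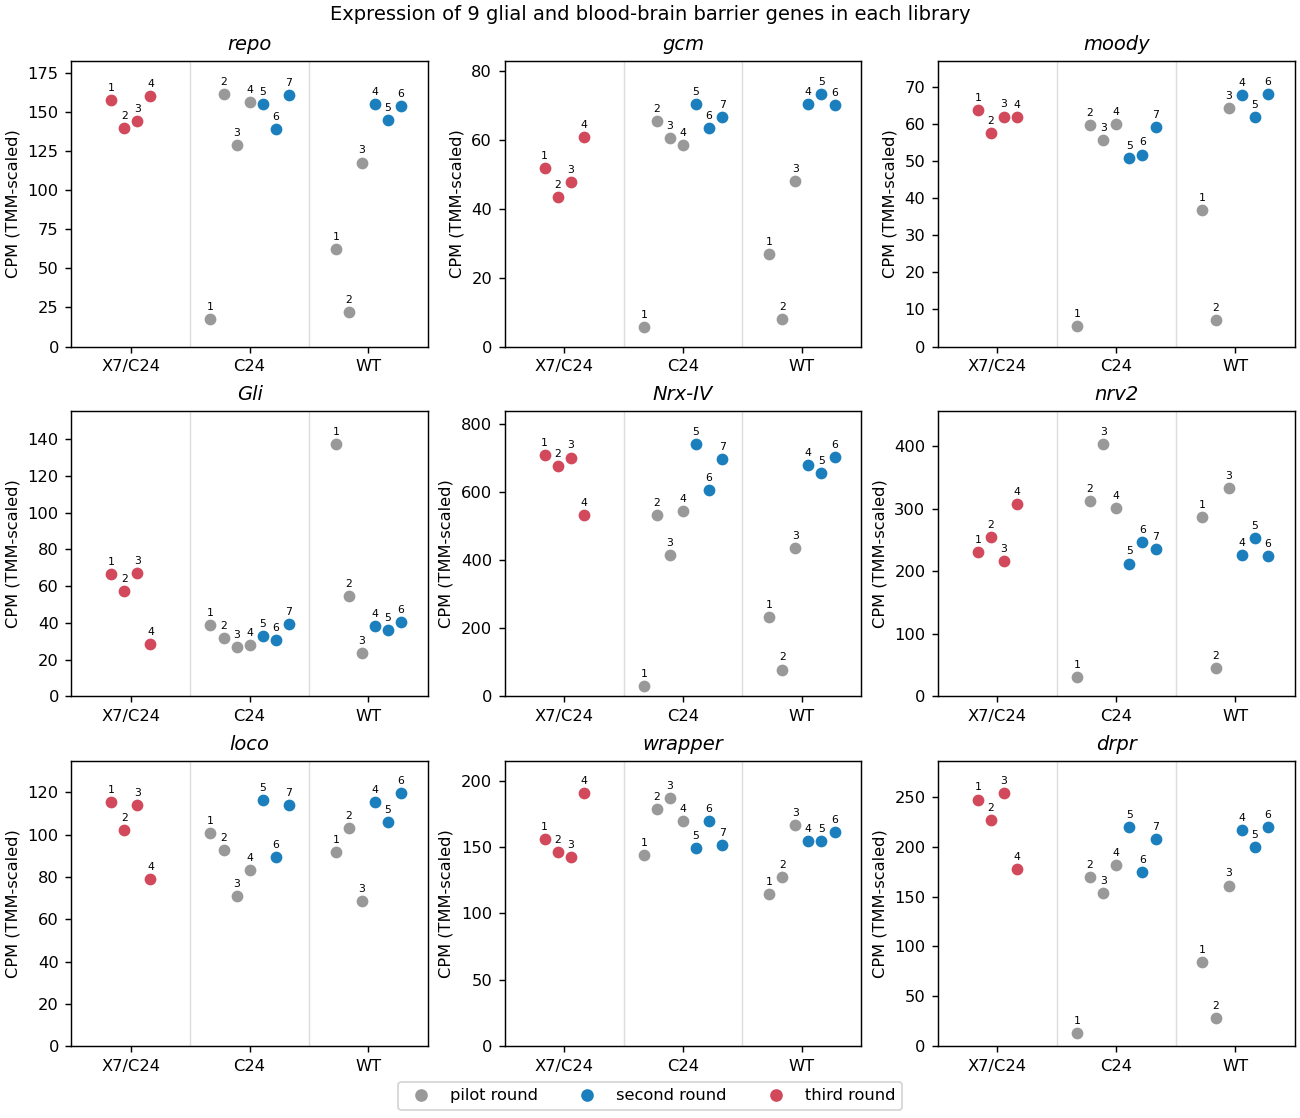
CPM (TMM-scaled, axis from 0) of each gene in each of the 17 libraries, as points numbered by replicate and coloured by sequencing round, with X7/C24, C24 and WT side by side. Gli lies higher and gcm lower in X7/C24_1 to 3 than in the second-round libraries, and several genes are far lower in C24_1, WT_1 and WT_2.

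In X7/C24 against WT, 3 of the 9 genes passed the test (33.3%): Gli and drpr were higher and gcm was lower. The edgeR quasi-likelihood test with Benjamini-Hochberg adjustment called 42.3% of all 9657 genes tested in that comparison. With 9 genes, the share among the glial genes is not read as different from it. Groups did not overlap for 3 of the 9 genes (33.3%), against 53.3% of all genes. Against C24, 2 of 9 genes passed (22.2%), Gli higher and gcm lower, against 13.5% of all 9454 genes. Groups did not overlap for 3 of 9 genes, against 37.6% of all genes. In C24 against WT none of the 9 genes passed, in a comparison in which 0.394% of all 9394 genes passed. DESeq2 and limma-voom also called 0 of the 9 there, and 1 of them, moody, had an unadjusted p below the threshold of 0.05, as had 687 of all genes. The median log2 fold change of the 9 genes was -0.02 in X7/C24 against WT, 0.04 in X7/C24 against C24 and -0.07 in C24 against WT, beside medians between -0.00376 and 0.00998 over all genes tested. X7/C24 against WT and against C24 share the X7/C24 libraries, and both comparisons with WT share the WT libraries. Since the libraries are whole CNS, fewer cells of a type and less RNA per cell cannot be told apart in any of these values.

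**Figure D2:**
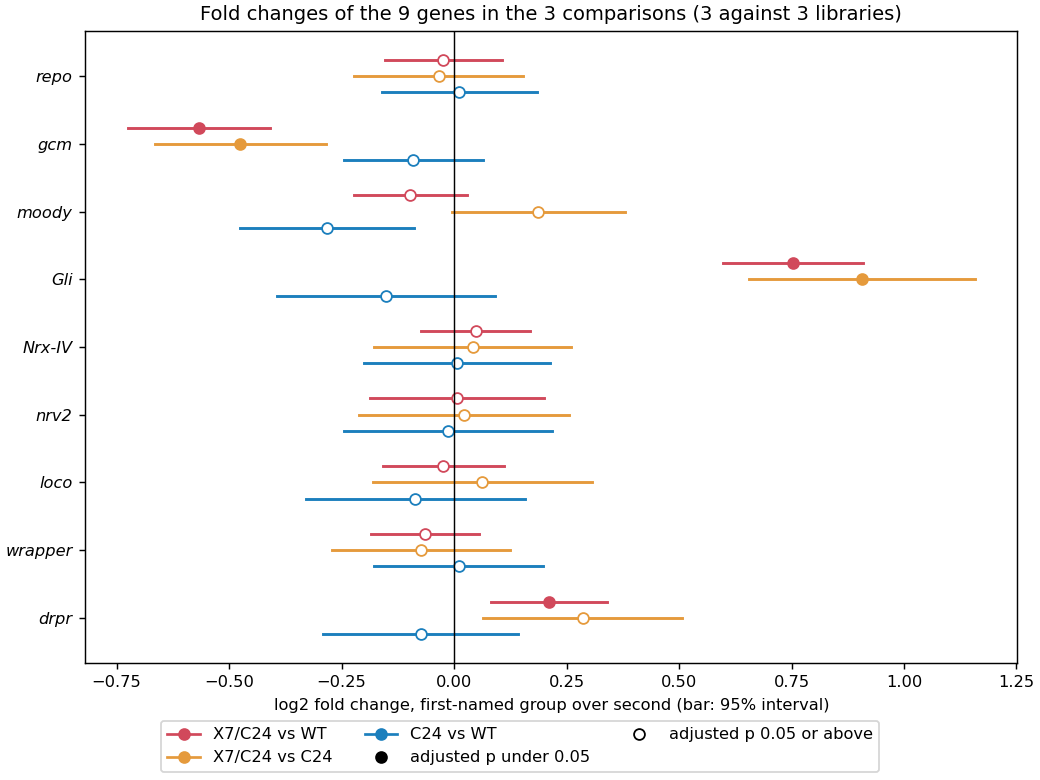
Log2 fold change (points) and 95% interval (bars) of each of the 9 genes in X7/C24 against WT, X7/C24 against C24 and C24 against WT, 3 against 3 libraries. Filled points have an adjusted p under 0.05: Gli and gcm in both X7/C24 comparisons and drpr in X7/C24 against WT.

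repo encodes the homeodomain protein found in nearly all lateral glia of the fly and is the usual glial marker. It had 157, 140.0 and 144 CPM in X7/C24_1 to 3, 155, 139 and 161 CPM in C24_5 to 7, and 155, 145 and 154 CPM in WT_4 to 6. The 3 groups overlapped. The log2 fold change was -0.02 in X7/C24 against WT (95% interval -0.15 to 0.11, adjusted p = 0.756, edgeR), -0.03 in X7/C24 against C24 (-0.22 to 0.15) and 0.01 in C24 against WT (-0.16 to 0.18). X7/C24_4, with 159.9 CPM, lay within the range of the second round as well.

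gcm encodes the transcription factor that switches neural precursors to the glial fate in the embryo, and in the larva it is used in the lamina of the optic lobe, in glial and neuronal precursors alike. It had 52.0, 43.6 and 47.9 CPM in X7/C24_1 to 3, 70.5, 63.4 and 66.6 CPM in C24_5 to 7, and 70.6, 73.4 and 70.4 CPM in WT_4 to 6. All X7/C24 values of the test lay below all C24 and WT values. The mean of gcm was 47.8 ± 4.21 CPM in X7/C24 and 71.5 ± 1.72 CPM in WT (SD, n = 3 each). Its log2 fold change was -0.57 with an SE of 0.069 (edgeR, adjusted p = 0.000590). Against C24, which averaged 66.8 ± 3.52 CPM, the log2 fold change was -0.47 (SE 0.082, adjusted p = 0.0104). X7/C24_4 had 60.9 CPM, between its group and the second round. With that library included, gcm was still called against WT (log2 fold change -0.48, adjusted p = 0.0461) and no longer against C24 (-0.39, adjusted p = 0.160). The call against C24 was also lost without X7/C24 replicate 2 (adjusted p = 0.0560) or replicate 3 (0.0661). Over its 17 alternatives the adjusted p ran between 0.000483 and 0.160 against C24 and between 5.58e-09 and 0.0461 against WT, where the call held in 17 of 17. In C24 against WT gcm gave -0.09 (95% interval -0.24 to 0.06). The neuroblast markers dpn, ase, mira, wor and insc moved with gcm against WT. There 5 of 5 were called lower in X7/C24 (median -0.29), as were 21.2% of all genes. Against C24 1 of 5 was called lower (median -0.19), beside 5.94% of all genes. The summed level of the 5 was 580 to 613 CPM in X7/C24_1 to 3, 710 to 721 CPM in C24_5 to 7 and 746 to 776 CPM in WT_4 to 6. In C24 against WT the 5 markers gave a median of -0.10 and none passed the edgeR test, adjusted or not. Their part in the value of gcm was not tested.

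moody encodes the receptor whose loss opens the barrier. It had 63.7, 57.4 and 62.0 CPM in X7/C24_1 to 3, 50.8, 51.7 and 59.2 CPM in C24_5 to 7, and 67.7, 61.9 and 68.0 CPM in WT_4 to 6. C24 lay below WT in all libraries of the second round, and X7/C24 overlapped both. The log2 fold change in C24 against WT was -0.28 (SE 0.083, 95% interval -0.48 to -0.09), with an adjusted p of 0.426 in the edgeR fit over all genes, and it kept its sign in 17 of 17 alternatives with adjusted p between 0.109 and 0.9996. Groups without overlap were found for 13.6% of all genes in that comparison and for 1 of the 9 here. In the pilot, C24_2 to 4 had 59.7, 55.7 and 60.1 CPM and WT_3 had 64.3 CPM. moody gave -0.10 in X7/C24 against WT (95% interval -0.22 to 0.03) and 0.19 in X7/C24 against C24 (-0.01 to 0.38), neither past the threshold.

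loco, whose product restrains G protein signalling downstream of Moody, had 115, 102 and 114 CPM in X7/C24_1 to 3, 116, 89.4 and 114 CPM in C24_5 to 7, and 115, 106 and 119 CPM in WT_4 to 6. All 3 groups overlapped. Its log2 fold change was -0.02 in X7/C24 against WT (95% interval -0.16 to 0.11), 0.06 in X7/C24 against C24 (-0.18 to 0.31) and -0.09 in C24 against WT (-0.33 to 0.16). The lowest value of the second round came from C24_6, which was also the lowest of its group for repo, gcm, Gli, Nrx-IV and drpr. Without C24_6, loco gave 0.02 in C24 against WT. With both C24_6 and WT_5 left out, 0 of the 9 genes passed in that comparison.

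Nrx-IV encodes neurexin IV, a transmembrane core protein of the septate junction and the most abundant of the 9 transcripts. It had 709, 675 and 701 CPM in X7/C24_1 to 3, 741, 604 and 695 CPM in C24_5 to 7, and 678, 656 and 703 CPM in WT_4 to 6. The ranges overlapped, with log2 fold changes of 0.05 in X7/C24 against WT (95% interval -0.07 to 0.17), 0.04 in X7/C24 against C24 (-0.18 to 0.26) and 0.01 in C24 against WT (-0.20 to 0.21). nrv2, the beta subunit of the sodium pump that glia and septate junctions use, had 231, 254 and 217 CPM in X7/C24_1 to 3, 212, 247 and 236 CPM in C24_5 to 7, and 227, 254 and 225 CPM in WT_4 to 6. These groups overlapped as well, and the 3 log2 fold changes of nrv2 lay between -0.01 and 0.02, with 95% intervals that reached from -0.25 to 0.25.

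Gli encodes gliotactin, a cholinesterase-like transmembrane protein at the corners where 3 cells meet, and it was the member with the largest change. It had 66.4, 57.5 and 67.2 CPM in X7/C24_1 to 3, 32.9, 30.4 and 39.3 CPM in C24_5 to 7, and 38.2, 35.9 and 40.4 CPM in WT_4 to 6. All X7/C24 values of the test lay above all values of the second round. The mean of Gli was 63.7 ± 5.40 CPM in X7/C24 and 38.2 ± 2.26 CPM in WT (SD, n = 3 each). This made a log2 fold change of 0.75 with an SE of 0.068 (edgeR, adjusted p = 0.000155). Against C24, with 34.2 ± 4.60 CPM, the log2 fold change was 0.91 (SE 0.108, adjusted p = 0.00218). In C24 against WT it was -0.15 (95% interval -0.39 to 0.09). X7/C24_4, however, had 28.6 CPM, below every library of the second round. With X7/C24_4 included, Gli gave 0.54 against WT (adjusted p = 0.261) and 0.69 against C24 (adjusted p = 0.297), and neither passed. With that library included and a trend on gene length removed, Gli gave 0.63 against WT (adjusted p = 0.0262) and 0.73 against C24 (0.0334). In the other 15 alternatives of each comparison the call of Gli held. The lowest adjusted p over all alternatives was 4.86e-15 against WT and 1.84e-09 against C24.

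Hemocyte and ring gland markers were higher with Gli in X7/C24_1 to 3. Of all genes, 21.2% were called higher against WT and 7.59% against C24. Against WT 0 of 5 fat body, 0 of 5 salivary gland and 1 of 7 muscle markers were higher. Against C24 these were 3, 0 and 1. Of 2 midgut markers tested, 0 were higher and 1 was lower in both comparisons, as was 1 salivary gland marker. Of the hemocyte markers Hml, NimC1, Pxn, He, srp and eater, 6 of 6 were higher in X7/C24 against WT and 6 of 6 against C24, with a summed level of 149, 237 and 298 CPM in X7/C24_1 to 3, 65.9, 48.5 and 71.5 CPM in C24_5 to 7, and 57.5, 45.4 and 66.4 CPM in WT_4 to 6. Hml, the hemolectin gene of plasmatocytes, had 31.2, 87.7 and 106 CPM in X7/C24_1 to 3, 2.20, 2.05 and 5.12 CPM in C24_5 to 7, and 4.58, 2.01 and 7.70 CPM in WT_4 to 6, whereas Pxn made up most of the sum in the second round. NimC1 had no count in C24_5, C24_6 and WT_5, which at those depths allows up to 0.169, 0.136 and 0.163 CPM, and the other 5 markers had counts in all of these libraries. Of the ring gland markers phm, dib, sad, nvd and Akh, 5 of 5 were higher in both comparisons, with a summed level of 303, 437 and 413 CPM in X7/C24_1 to 3, 45.8, 50.6 and 66.8 CPM in C24_5 to 7, and 49.6, 41.5 and 24.4 CPM in WT_4 to 6. X7/C24_4, with low Gli, had sums of 38.5 CPM (hemocyte) and 52.3 CPM (ring gland), like the second round. WT_1, where Gli was highest of all libraries with 137.5 CPM, had the highest hemocyte sum as well (359.8 CPM) and 588.9 CPM for the ring gland. Its fat body sum was also the highest of all libraries (4671 CPM, against 50.7 to 213 CPM in the second round). Its muscle sum was 2059 CPM, against 148 to 683 CPM in the second round. In the pilot libraries C24_2 to 4 and WT_3 the ring gland sum was 329, 340.4, 154 and 389 CPM, the hemocyte sum 46.2, 49.4, 60.0 and 61.8 CPM, and Gli had 32.0, 26.7, 28.0 and 23.4 CPM. There the ring gland sums, that of C24_4 apart, lay within the range of X7/C24_1 to 3, whereas the hemocyte sums were like those of the second round. In C24_1 and WT_2 the hemocyte sum was 190 and 291 CPM, the ring gland sum 1234 and 1131 CPM, and Gli had 38.8 and 54.6 CPM. The parts of blood cells, fat body and muscle in the value of Gli were not tested.

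wrapper, an immunoglobulin-family surface protein by which midline and other glia hold on to axons, had 156, 146 and 142 CPM in X7/C24_1 to 3, 149, 169.7 and 151 CPM in C24_5 to 7, and 154, 154 and 161 CPM in WT_4 to 6. The ranges overlapped. Its log2 fold change was -0.07 in X7/C24 against WT (95% interval -0.18 to 0.05), -0.07 in X7/C24 against C24 (-0.27 to 0.12) and 0.01 in C24 against WT (-0.18 to 0.20).

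drpr, the engulfment receptor, is used in glia and also in phagocytic blood cells. It had 247, 227 and 253 CPM in X7/C24_1 to 3, 219.7, 174 and 207 CPM in C24_5 to 7, and 217, 199 and 219.6 CPM in WT_4 to 6. All X7/C24 values of the test lay above all C24 and WT values. The mean of drpr was 243 ± 13.8 CPM in X7/C24 and 212 ± 10.9 CPM in WT (SD, n = 3 each), which gave a log2 fold change of 0.21 with an SE of 0.056 (edgeR, adjusted p = 0.0170). This call was lost without X7/C24 replicate 1 (adjusted p = 0.0833) or replicate 3 (0.0887), with total counts in place of TMM (0.0592), in a joint fit of all 9 libraries (0.0949) and with X7/C24_4 included (log2 fold change 0.11, adjusted p = 0.673), and it held in the other 12 of 17 alternatives, the lowest adjusted p being 0.00475. Against C24, with 200.4 ± 23.6 CPM, the log2 fold change was 0.29 (SE 0.096, adjusted p = 0.0893), which did not pass. It passed without C24 replicate 6 (0.20, adjusted p = 0.0398), in the joint fit (0.0434) and with the length trend removed (0.0136, or 0.0272 with X7/C24_4 included as well), over a range of 0.0136 to 0.638 in 17 alternatives. In C24 against WT drpr gave -0.07 (95% interval -0.29 to 0.14). The hemocyte sums given beside Gli were higher with drpr in X7/C24_1 to 3. In WT_1, WT_2 and C24_1, with hemocyte sums of 359.8, 291 and 190 CPM, drpr was low, with 84.2, 28.1 and 13.6 CPM. The part of blood cells in the value of drpr was not tested.

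The genes that work with the 9 were read from lists of 80 genes in all, of which 78 were matched and 77 tested. In X7/C24 against WT 27 were higher and 13 lower, where 21.2% of all genes were called higher and 21.2% lower. Against C24 7 were higher and 2 lower, beside 7.59% of all genes called higher and 5.94% lower. In C24 against WT the edgeR test, DESeq2 and limma-voom called 0 of the 77. Of these, 8 had an unadjusted p below 0.05 in the edgeR test, beside 687 of all 9394 genes. Of the other septate junction genes, 13 of 21 were higher in X7/C24 against WT and none was lower, with a median log2 fold change of 0.23. The claudins sinu (0.74, adjusted p = 0.000182) and pck (0.41), the sodium pump subunit nrv1 (0.67, adjusted p = 0.00539) and the adhesion protein Fas3 (0.50, adjusted p = 0.000441) were among the higher genes, and the Ly6-family protein crok gave 0.49. The core components Nrg (0.07), cora (0.04), Cont (0.13) and Atpalpha (-0.09) did not pass, as Nrx-IV and nrv2 did not. sinu had 69.1, 66.8 and 67.2 CPM in X7/C24_1 to 3, 49.8, 47.1 and 46.6 CPM in C24_5 to 7, and 43.2, 42.1 and 37.6 CPM in WT_4 to 6, with no overlap between X7/C24 and the others. Against C24, 4 of 21 were higher: sinu (0.51), pck (0.39), Fas3 (0.35) and vari (0.32). The call of sinu held there in 15 of 17 alternatives and that of Fas3 in 7, being lost with total counts (adjusted p = 0.0502), with the kit term (0.0564), with the length trend removed (0.203) and without any 1 of the X7/C24 libraries, C24 replicate 5 or C24 replicate 7 (0.0516 to 0.0902). Septate junctions are also built by other epithelia, such as the imaginal discs. Of 8 genes listed as disc markers, 4 were higher in X7/C24 against WT (50%, beside 21.2% of all genes). Against C24 1 was higher (12.5%, beside 7.59% of all genes). Their summed level was 1199 to 1682 CPM in the second round and 55.8, 124 and 404 CPM in C24_1, WT_2 and WT_1. They were thus low where CNS markers were low, and do not set disc tissue apart here. The study, in contrast, read high Pen in C24_1, WT_2 and WT_1 as a sign of tissue from outside the CNS, such as discs. Pen was not among the 8 genes. A part of discs in these values was not tested. With X7/C24_4 included the septate junction calls against WT numbered 5, among them sinu and nrv1 but not Fas3 (adjusted p = 0.0914), and against C24 neither sinu (adjusted p = 0.217) nor Fas3 (0.382) passed. In the joint fit of 9 libraries the calls against WT numbered 8. The calls over all genes also fell with X7/C24_4 included, as given below, and no share over all genes is given for the joint fit.

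Of 11 genes of transport across the barrier, 6 were lower (54.55%) and 1 was higher (9.09%) in X7/C24 against WT, with a median log2 fold change of -0.16. Over all genes 21.2% were called lower and 21.2% higher in that comparison. Against C24 1 was lower (9.09%, beside 5.94% of all genes) and 10 did not pass (median -0.18). In C24 against WT 0 of 11 passed (median -0.19). Mdr65, the drug-exporting ABC transporter of the barrier, had 153.5, 181 and 154 CPM in X7/C24_1 to 3, 208, 239 and 272 CPM in C24_5 to 7, and 271, 260.4 and 277 CPM in WT_4 to 6. The X7/C24 libraries lay below all others of the tests, with a log2 fold change of -0.71 against WT (adjusted p = 0.000298) and -0.55 against C24 (adjusted p = 0.0253). X7/C24_4 had 205 CPM, and with it Mdr65 was past the threshold against WT (adjusted p = 0.0269) and not against C24 (0.163). With that library included and the length trend removed it passed in neither (0.0830 against WT and 0.264 against C24). The call of Mdr65 against C24 held in 11 of 17 alternatives, and was also lost with the kit term (0.0548) and without X7/C24 replicate 1 (0.118), X7/C24 replicate 3 (0.120) or C24 replicate 7 (0.0595). The organic anion transporter Oatp33Ea gave -1.25 against WT (adjusted p = 0.00284) at low levels of 3.0, 3.6 and 2.6 CPM in X7/C24_1 to 3, against 6.9, 9.3 and 5.9 CPM in WT_4 to 6. C24_5 to 7 had 3.1, 3.5 and 6.3 CPM and overlapped X7/C24. Against C24 Oatp33Ea passed in 0 of 17 alternatives. The trehalose transporter Tret1-1 gave -0.44, Oatp58Dc -0.40, and the amino acid transporters JhI-21 -0.29 and mnd -0.16. Oatp74D, an importer of ecdysone, was the one that was higher (0.61, adjusted p = 0.0283), with 131, 230.2 and 166 CPM in X7/C24_1 to 3 and 124, 97.5 and 128 CPM in WT_4 to 6. The call of Oatp74D held in 9 of 17 alternatives. It was lost without X7/C24 replicate 2 (adjusted p = 0.0765) or replicate 3 (0.0584), without WT replicate 4 (0.0628), with DESeq2 (0.0541), with the kit term (0.0605), in the joint fit (0.0957) and with X7/C24_4 included (0.561, or 0.238 with the length trend removed as well). When X7/C24_4 was included, 2 barrier transport genes passed against WT, both lower, and the calls over all genes fell as well, as given below.

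**Figure D3:**
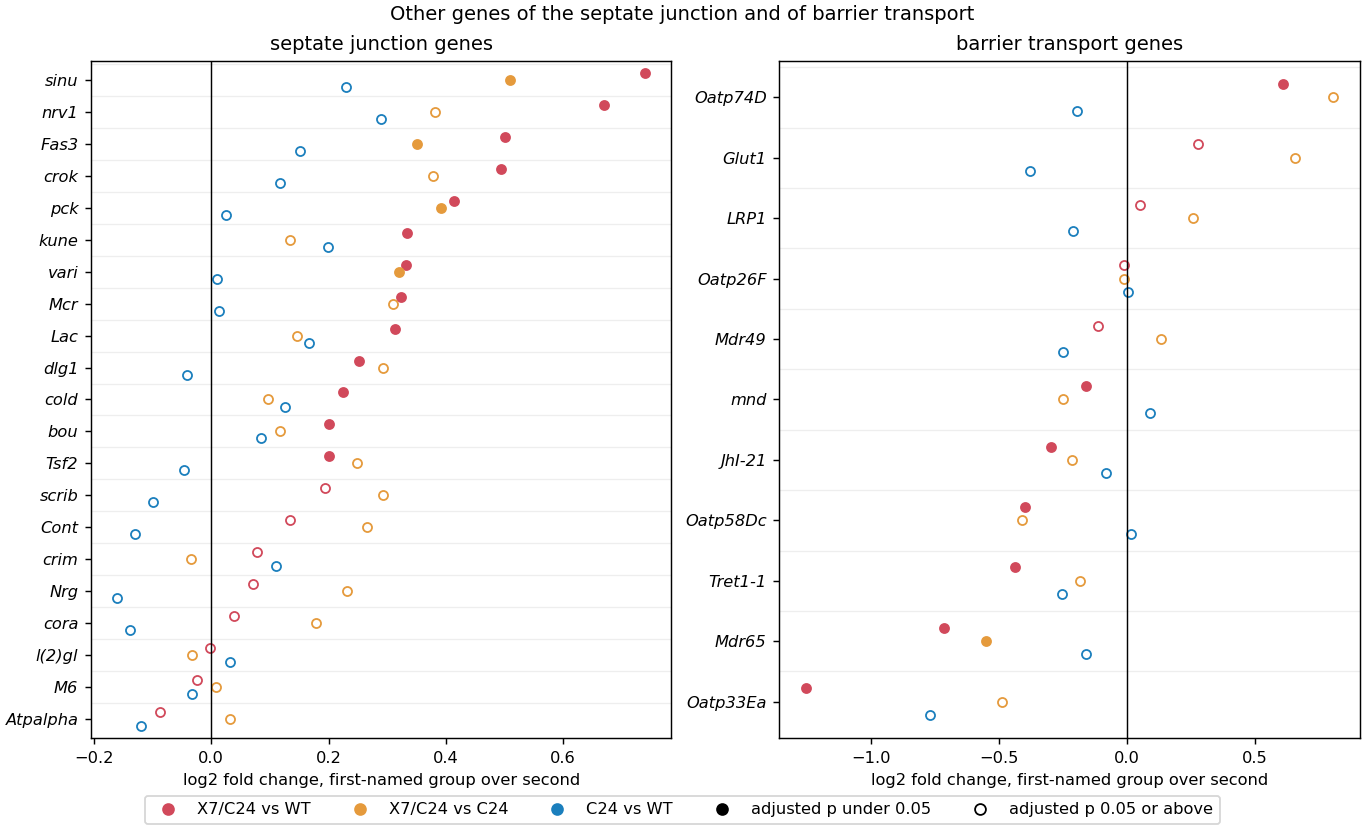
Log2 fold change of the septate junction genes (left, 21 genes) and the barrier transport genes (right, 11 genes) in X7/C24 against WT, X7/C24 against C24 and C24 against WT. Filled points have an adjusted p under 0.05: 13 septate junction genes are higher and 6 transport genes lower in X7/C24 against WT, and no point of C24 against WT is filled.

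Of 8 genes of Moody signalling, 2 were higher in X7/C24 against WT, the myosin light chain sqh (0.34, adjusted p = 0.00583) and the G protein subunit Ggamma1 (0.28, adjusted p = 0.0172). Against a background of 21.2% of all genes higher, these were 25.0% of the list. Neither passed with X7/C24_4 included (adjusted p = 0.0666 and 0.111), and Ggamma1 was also lost without X7/C24 replicate 1 (0.0547) or 2 (0.0632) and without WT replicate 4 (0.0738) or 6 (0.0672). Against C24 sqh gave 0.24 (adjusted p = 0.136) and Ggamma1 0.14 (0.344). Of the 16 genes of glial engulfment that act with or downstream of Draper, 6 were higher (37.5%, against 21.2% of all genes) and 1 (Traf4, -0.19) lower in X7/C24 against WT. The hemocyte markers, 6 of 6 higher in the same comparison, moved with them (sums of 149 to 298 CPM in X7/C24_1 to 3 and 45.4 to 66.4 CPM in WT_4 to 6), and their part in these values was not tested. Mmp1, a matrix metalloproteinase, gave 0.77 (adjusted p = 0.00653), with 136, 87.3 and 147 CPM in X7/C24_1 to 3 and 74.7, 74.9 and 69.9 CPM in WT_4 to 6. The GTPase Rac2 gave 0.46 (adjusted p = 0.00126) and kay, the Fos subunit of AP-1, gave 0.33 (adjusted p = 0.00206). kay was the only one called against C24 (0.48, adjusted p = 0.00892). Mmp1, Rac2 and kay did not pass against WT with X7/C24_4 included (adjusted p = 0.233, 0.0615 and 0.238), nor kay against C24 (0.183).

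Of 6 other genes of glial fate, lz and ttk were higher (33.3%) and tll (-0.24, adjusted p = 0.0194) lower (16.7%) in X7/C24 against WT. Of all genes, 21.2% were called higher there and 21.2% lower. Against C24 lz and ttk were higher (33.3%, beside 7.59% of all genes). lz, a Runx factor that is also used in the crystal cell lineage of the blood, had 8.0, 7.4 and 7.6 CPM in X7/C24_1 to 3, 2.8, 2.5 and 2.6 CPM in C24_5 to 7, and 1.7, 1.7 and 2.5 CPM in WT_4 to 6, a log2 fold change of 1.95 against WT (adjusted p = 0.000150). X7/C24_4 had 1.1 CPM and WT_1, with the highest hemocyte and fat body sums, had 12.5 CPM. ttk, a zinc finger repressor of neuronal genes, gave 0.61 against WT (adjusted p = 0.000355) and 0.56 against C24 (adjusted p = 0.00621). gcm2, the paralog of gcm, gave -0.02 against WT, and pnt gave -0.07. Of 15 genes listed for astrocyte-like, cortex, wrapping or perineurial glia, 3 were higher (20%) and 5 lower (33.3%) in X7/C24 against WT. Whether the 15, which include nrv3, Nrt and Indy, are specific to glia was not tested. The shares over all genes were 21.2% higher and 21.2% lower. The lower ones were led by CG6126 (-0.84, adjusted p = 0.0118), the glutamine synthetase Gs2 (-0.69, adjusted p = 0.00178) and the cytochrome P450 gene Cyp4g15 (-0.57, adjusted p = 0.00132). The glutamate transporter Eaat1 (-0.02) and the astrocyte gene alrm (-0.14) did not pass. Cyp4g15 alone of the 15 passed against C24 (-0.45, adjusted p = 0.0496), in 7 of 17 alternatives: it was lost with limma-voom (0.0549), with either other filter (0.0571 and 0.0550), with the kit term (0.0942), with X7/C24_4 included, and without any 1 of the X7/C24 libraries or C24 replicate 7 (0.0743 to 0.191). Once X7/C24_4 was included, neither the fate genes lz (adjusted p = 0.145), ttk (0.287) and tll (0.506) nor the subtype genes CG6126 (0.144), Gs2 (0.244) and Cyp4g15 (0.0907) passed against WT. The call of tll was also lost without X7/C24 replicate 2 (0.0511) or 3 (0.0571) and without WT replicate 4 (0.0788), and held in 12 of 17 alternatives.

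The pilot libraries divided the 9 genes. In C24_1 and WT_2, repo had 17.8 and 22.3 CPM, gcm 5.63 and 7.91, moody 5.47 and 7.28, Nrx-IV 29.7 and 78.6, drpr 13.6 and 28.1, and nrv2 31.4 and 45.6 CPM. On the log2 scale these lay between -4.51 and -2.35 from the mean of the 6 second-round libraries, and Nrx-IV in C24_1 lay farthest. loco had 101 and 103 CPM and wrapper 144 and 128 CPM in the same libraries, which differed from the second round by -0.12 and -0.09 for loco and by -0.12 and -0.29 for wrapper. Gli had 38.8 and 54.6 CPM, above the second-round mean by 0.11 and 0.60. The neuronal gene elav had 28.9 CPM in C24_1 and 74.0 CPM in WT_2, against 2040 to 2584 CPM in C24_5 to 7 and 2091 to 2298 CPM in WT_4 to 6. Muscle, fat body, midgut and salivary gland markers were high in both, with fat body sums of 4209.5 and 2767 CPM against 50.7 to 213 CPM in the second round. Their part in the values was not tested.

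WT_1 differed from both. There repo (62.4 CPM), gcm (27.0), Nrx-IV (232) and drpr (84.2) lay between -1.55 and -1.28 from the second-round mean on the log2 scale, moody (36.7 CPM) at -0.70 and wrapper (115 CPM) at -0.45, while nrv2 (287 CPM) lay at 0.30 and Gli (137.5 CPM) at 1.93. Its elav level was 273 CPM. Fat body and muscle sums were high in WT_1, as in C24_1 and WT_2, with 4671 and 2059 CPM. The salivary gland sum was 131 CPM, and the midgut sum (6.51 CPM) lay within the range of the second round. Their part in the values of WT_1 was not tested. The member genes took 0.127% of all counts in WT_1, 0.0314% in C24_1 (95% Wilson interval 0.0302% to 0.0327%) and 0.0413% in WT_2, and between 0.159% and 0.174% in each of the other 14 libraries. The intervals cover counting error only.

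**Figure D4:**
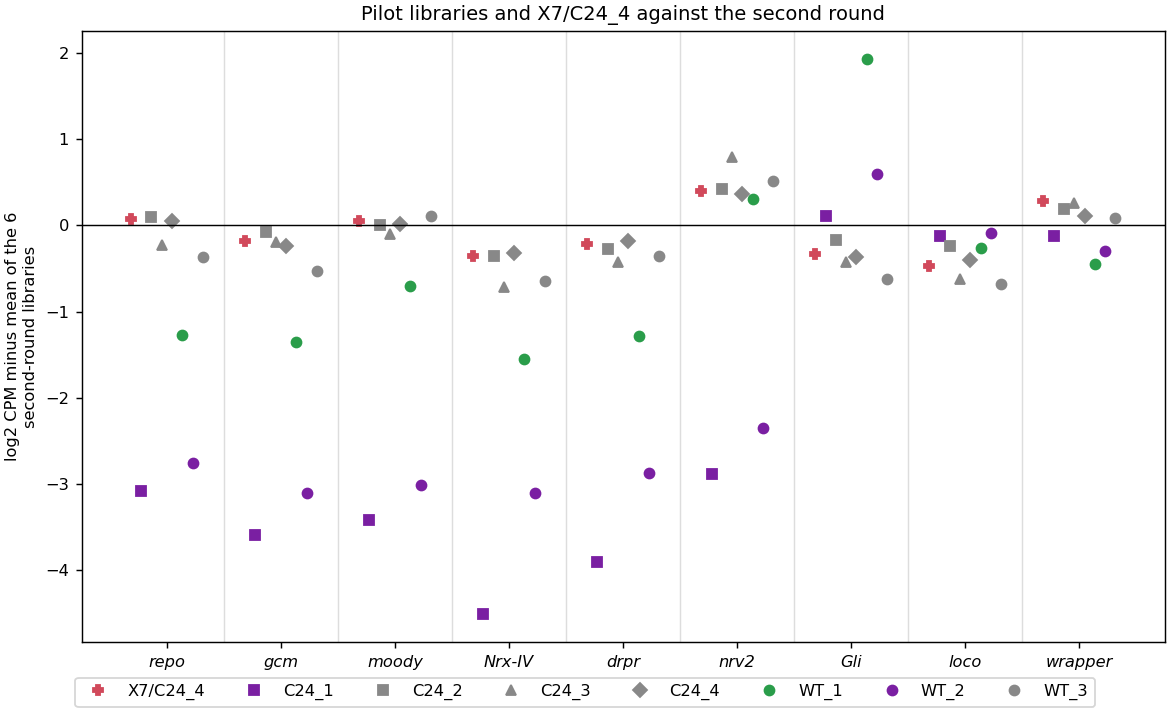
Log2 CPM of each gene in X7/C24_4 and in the 7 pilot libraries, minus the mean of the 6 second-round libraries (line at 0). repo, gcm, moody, Nrx-IV, drpr and nrv2 lie far below 0 in C24_1 and WT_2, whereas loco, wrapper and Gli lie near or above it.

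C24_2 to 4 and WT_3 resembled the second round more closely, with differences that ran in the same direction in all 4 for several genes. Nrx-IV had 531, 415 and 542 CPM in C24_2 to 4 and 435 CPM in WT_3, below the 604 to 741 CPM of the second round. drpr had 169, 153 and 181 CPM in C24_2 to 4 and 161 CPM in WT_3, against 174 to 219.7 CPM in the second round. nrv2 was higher, with 312, 404 and 300.5 CPM in C24_2 to 4 and 333 CPM in WT_3, against 212 to 254 CPM. X7/C24_4 had 532 CPM for Nrx-IV, 178 for drpr, 308 for nrv2, 78.9 for loco and 190 CPM for wrapper, and so lay with these 4 libraries and not with X7/C24_1 to 3. Against the second-round range, X7/C24_4 was lower for 4 and higher for 2 of the 9 genes, and C24_3 and WT_3 were lower for 6 each.

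These differences went with gene length. This was read over 7648 genes of known exon length. Their mean log2 CPM was at least 1 over all libraries and over the second round. The difference of C24_2 to 4 and WT_3 from the second round had a correlation of -0.77 with the log of the exon length. That of X7/C24_4 had one of -0.79 and that of X7/C24_1 to 3 one of 0.07. In the first set the median difference was 0.66 for genes under 1000 exon bases and -0.95 for genes over 6000 bases, and in X7/C24_4 it was 0.63 and -1.06. The 9 genes followed in part: in X7/C24_4 the longest, loco, lay at -0.47 and the shortest, wrapper, at 0.28, and the correlation over the 9 was -0.65, a description over genes of the same libraries. nrv2 departed from the trend with 0.40 in X7/C24_4 and 0.52 in C24_2 to 4 and WT_3, where genes of 3000 to 4000 bases had medians of -0.22 and -0.26. In X7/C24_1 to 3 Gli (0.82), drpr (0.24) and gcm (-0.53) lay at such values where the medians of their length classes were 0.02 for Gli and drpr and -0.06 for gcm. Between the 5% and 95% percentiles, genes ran from -0.33 to 0.53 in the class of Gli and drpr and from -0.44 to 0.46 in that of gcm, so that drpr lay inside and Gli and gcm outside.

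**Figure D5:**
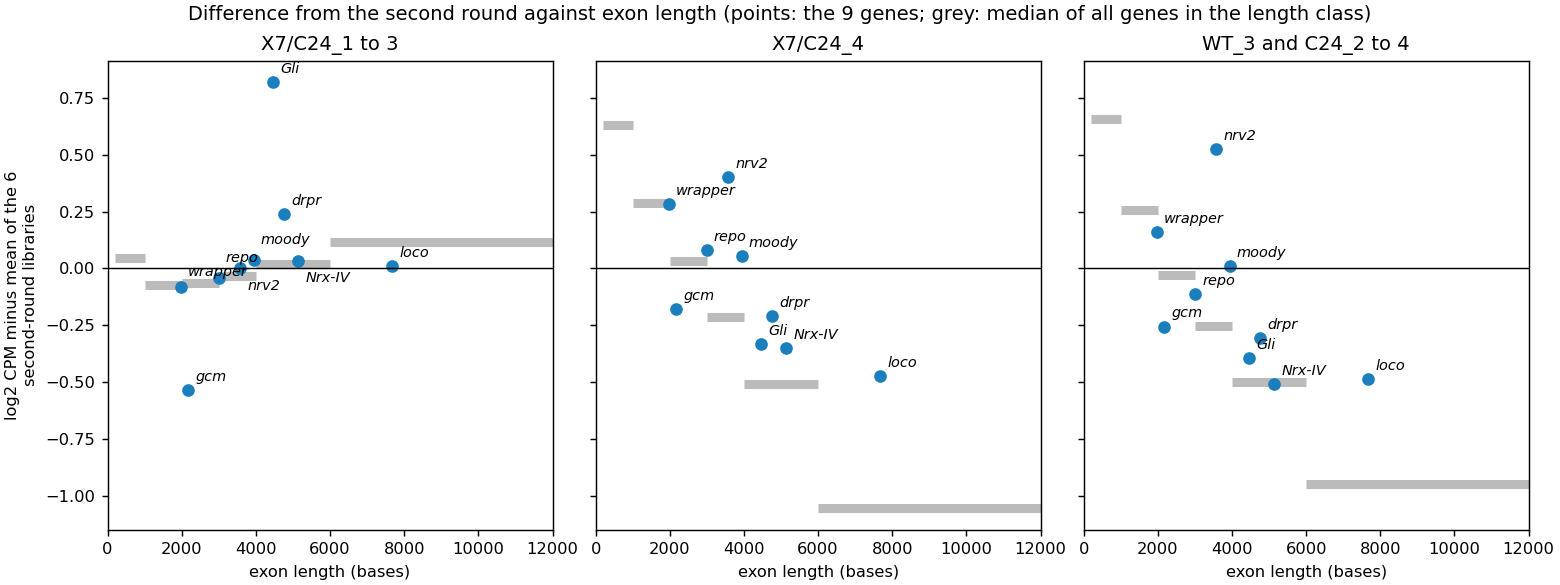
Log2 CPM minus the mean of the 6 second-round libraries against exon length in bases, for X7/C24_1 to 3, X7/C24_4, and C24_2 to 4 with WT_3. Points are the 9 genes and grey bars the medians of the expressed genes of known length in a length class (the last class reaches beyond the axis). The medians fall with length in the middle and right panels and stay near 0 in the left one.

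The pattern of repo over the libraries was shared by many genes, but not by all 9. Over the 17 libraries, the Pearson correlation of log2 CPM with repo was 0.98 for gcm, moody, Nrx-IV and drpr, 0.89 for nrv2, 0.56 for wrapper, 0.01 for loco and -0.28 for Gli. These values rest on the low pilot libraries, and 2575 of the 8352 genes whose log2 CPM averaged 1 or more reached 0.9. The 5 genes most like repo were Hsf, erm, TBPH, CG42678 and Vsx1 (0.99 to 0.996), and elav had 0.99. Over the 10 libraries of rounds 2 and 3 no gene reached 0.9, and the 5 most like repo were Hus1-like (0.86), CG3209 (0.83), Rpd3 (0.81), hbn (0.80) and CG15642 (0.78). Of the members gcm was the most like it there, with 0.39.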

How the data were processed

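mRNA was measured in 17 libraries of dissected larval CNS. The authors filtered reads by quality, aligned the paired-end reads of unstranded poly-A libraries to BDGP5 with BWA, removed duplicates with SAMTools, counted reads per gene with HTSeq in union mode on FlyBase models, and deposited whole-number counts without normalization. Removing duplicates can lower the counts of strongly expressed genes, and ambiguous reads were not counted. The authors' tables of normalized counts and size factors were not used here.

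Members were matched by symbol in the counts. Columns were mapped to libraries by their descriptions and titles, sequencing rounds come from the study's library table, and groups from the labels. Counts were tested in R 4.3.3 with edgeR 4.0.16 (quasi-likelihood, TMM, filterByExpr, Benjamini-Hochberg over all genes tested, threshold 0.05), 3 against 3 libraries. For log2 CPM a prior of 2 counts was added. Alternatives used DESeq2 1.42.0, limma 3.58.1 (voom), other size factors and filters (at least 10 counts in every library, or none), a kit term, a joint fit, a length trend removed (lowess span 0.3), X7/C24_4 included, a replicate block and each library left out. The kit term separated kit sets A and B, which both occur in each round. It did not separate the earlier library kit from the later one. X7/C24_4 together with the length trend, and C24_6 and WT_5 both left out, were added after seeing the data. Exon lengths came from the BDGP6 annotation and cover 94.8% of the genes. The tests were tried on simulated data. At 7883183 to 28339670 counts a library, a count of 0 (limit of 3 counts) allows 0.110 to 0.469 CPM on the TMM scale. Replicate numbers 5 and 6 of C24 and WT were not taken as pairs.

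The members and gene lists were chosen with earlier results of these data known. The genes named are the 9 members, Smn, elav, up to 3 genes of each list with the largest change among those called, and the 5 most like repo. Further genes named with the lists were picked with their values known. The listed genes aka, bent and zyd were not matched, and Shark, Gat, nSyb and NimC1 were matched by FlyBase ID.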

Additional observations from a re-analysis of the deposited data

Results flagged for a closer look

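Within X7/C24 (4 libraries), C24 (7) and WT (6), 27 sets of values were looked at for a library set apart by a gap, of which chance gives about 1 in 20, and 5 were found. C24_1 was the lowest of C24 for repo (17.8 CPM), gcm (5.63 CPM), moody (5.47 CPM) and drpr (13.6 CPM). WT_1 was the highest of WT for Gli (137.5 CPM). All 4 low values come from 1 library, which the study left out. Nrx-IV and nrv2 were also lowest in C24_1 (29.7 and 31.4 CPM) without meeting the limit for a gap. None of these libraries entered the tests.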

How the results depend on the processing

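Among the 459 alternative values of the 9 genes, 394 kept their direction and their side of the threshold, 10 lost the threshold, 4 reached it and 51 changed sign. Of 60 sign changes, those of other named genes included, 0 had an adjusted p under 0.05 with or without the alternative. The calls of Gli held in every alternative but X7/C24_4 included, that of gcm against WT held in all, and those of drpr against WT and gcm against C24 were lost in the alternatives given with each gene. The cause of the shifts below was not tested.

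The number of all genes called in C24 against WT was 37 and became 112 with DESeq2, 10 with at least 10 counts in every library, 11 with the kit term, 81 in the joint fit, 128 with the length trend removed, 14 with the replicate block, 214 with C24_6 and WT_5 left out and 5 to 27 with a library left out. In X7/C24 against WT it was 4087 and became 761 with X7/C24_4 included (1 member called, against 3 without it) and 2661 with the length trend removed as well. In X7/C24 against C24 it was 1280 and became 752 with the kit term, 2042 in the joint fit, 2598 with the length trend removed, 33 with X7/C24_4 included (0 members called, against 2 without it) and 461 to 2707 with a library left out (1 to 3 members called).

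The log2 fold changes that changed sign were, with total counts, nrv2 in C24 against WT (0.014), Nrx-IV (-0.0093) and nrv2 (-0.052) in X7/C24 against WT, and Nrx-IV (-0.038), nrv2 (-0.066) and loco (-0.014) in X7/C24 against C24. With the kit term it was nrv2 in C24 against WT (0.0055), and with C24_6 and WT_5 left out nrv2 (0.0055) and wrapper (-0.052) there. With the length trend removed they were nrv2 (0.014), loco (0.057), wrapper (-0.0054) and kay (0.0085) in C24 against WT, repo (0.011) in X7/C24 against WT, and Nrx-IV (-0.029), loco (-0.11) and elav (-0.17) in X7/C24 against C24. With X7/C24_4 included they were repo (0.00052), Nrx-IV (-0.044) and wrapper (0.027) against WT, and Nrx-IV (-0.051), loco (-0.049), wrapper (0.018), elav (-0.036) and CG6126 (0.018) against C24. With the length trend removed as well they were repo (0.062), moody (0.023), loco (0.10) and wrapper (0.033) against WT, and repo (0.042), wrapper (0.032), tll (0.0098) and CG6126 (0.035) against C24.

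With a library left out, C24 against WT ran from -0.049 to 0.075 for Nrx-IV, -0.075 to 0.059 for nrv2, -0.19 to 0.00099 for Cyp4g15, -0.14 to 0.016 for loco, -0.063 to 0.053 for wrapper, -0.14 to 0.0069 for drpr and -0.029 to 0.059 for repo. X7/C24 against WT ran from -0.076 to 0.080 for nrv2 and -0.067 to 0.012 for loco. X7/C24 against C24 ran from -0.083 to 0.0073 for repo, -0.045 to 0.095 for nrv2, -0.49 to 0.11 for CG6126, -0.027 to 0.098 for Nrx-IV and -0.041 to 0.12 for loco.

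The replicate numbers 5 and 6 shared by C24 and WT had deviations from the group means that correlated at -0.27 and -0.39 over 8353 genes. Each group mean also holds a library whose number the other group lacks. The means include C24_6 and WT_5 as well, in which the study saw transcripts from outside the CNS. The correlations therefore cannot decide whether libraries of the same number shared a dissection or preparation. With the replicate block repo (-0.016) and Nrx-IV (-0.016) changed sign in C24 against WT, and no member was called. X7/C24_1 to 3 share no numbers with the other libraries of the tests.

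With 3 pools a group, the 95% intervals of the members reach 0.12 to 0.25 to either side on the log2 scale, before any adjustment over genes.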
